A study of Mus musculus with 4 samples.

Results

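Nts, Adm, Pthlh, Penk, Npy, Tac1, Calca, Cck, Edn1 and Apln encode precursors of secreted signalling peptides. They were described in cells sorted from the pulp of mouse molars and incisors. The 10 genes were matched by symbol in a table of 24216 rows, and each matched 1 row that the authors had tested. They were proposed with their molar and incisor values in view, so their differences are given as a description and support nothing further. The mice carried XLacZ4, a transgene that makes bacterial beta-galactosidase in pericytes and vascular smooth muscle, the mural cells of vessels. Pulp cells that turned fluorescent with FDG, a substrate of that enzyme and also of the lysosomal beta-galactosidase that other cells hold, were sorted and their RNA was sequenced in 2 molar libraries and 2 incisor libraries. The molar stops growing after eruption, whereas the mouse incisor grows throughout life. The deposited table holds 1 combined value per gene for each tissue, in FPKM (RNA fragments scaled by transcript length and sequencing depth), so no replicate error can be given and the depth is unknown. No source used here gives the age or sex of the mice, or says whether each library came from its own animal.

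Such peptides are made as longer precursor proteins that enter the secretory pathway, are cut by proprotein convertases and carboxypeptidases, and often receive a C-terminal amide before release. Most act on G-protein-coupled receptors of nearby cells. In dental pulp, substance P and calcitonin gene-related peptide (CGRP) from sensory nerves widen vessels, neuropeptide Y from sympathetic nerves narrows them, and enkephalins dampen nociceptors. The cell bodies of the pulp's nerves lie outside the tooth, in ganglia.

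The window of 250 bases upstream of the RefSeq start site was available for 9 of the 10 genes (GRCm38.p6, the same assembly as the mm10 of the table). Shown are the windows of those genes with an entry that differed at q under 0.05 in the authors' deposited table, Nts and Pthlh with lower values in molar and Adm and Tac1 with higher values in molar. Each is written 5′ to 3′ on the gene's strand. Capitals mark matches on either strand to TGAGTCA (the AP-1 site), TGACGTCA (the full cAMP response element), TGACG (the core of that element, also contained in the full one) and ACGTG (the core of the hypoxia response element).
Nts, chr10:102490419-102490668, minus strand: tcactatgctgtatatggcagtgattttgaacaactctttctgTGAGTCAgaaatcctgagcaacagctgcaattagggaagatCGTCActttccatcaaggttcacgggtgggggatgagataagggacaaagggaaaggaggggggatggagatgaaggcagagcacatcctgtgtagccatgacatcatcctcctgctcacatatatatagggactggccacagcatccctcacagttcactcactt
Pthlh, chr6:147264014-147264263, minus strand: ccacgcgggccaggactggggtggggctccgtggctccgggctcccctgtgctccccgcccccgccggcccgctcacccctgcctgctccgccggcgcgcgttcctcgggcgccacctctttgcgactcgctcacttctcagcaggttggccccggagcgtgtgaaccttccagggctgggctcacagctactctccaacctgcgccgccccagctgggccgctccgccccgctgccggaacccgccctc
Adm, chr7:110627407-110627656, plus strand: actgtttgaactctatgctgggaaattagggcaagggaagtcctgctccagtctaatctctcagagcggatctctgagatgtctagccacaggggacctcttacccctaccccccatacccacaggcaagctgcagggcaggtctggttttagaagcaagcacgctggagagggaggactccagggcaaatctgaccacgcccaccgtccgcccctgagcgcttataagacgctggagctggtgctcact
Tac1, chr6:7554811-7555060, plus strand: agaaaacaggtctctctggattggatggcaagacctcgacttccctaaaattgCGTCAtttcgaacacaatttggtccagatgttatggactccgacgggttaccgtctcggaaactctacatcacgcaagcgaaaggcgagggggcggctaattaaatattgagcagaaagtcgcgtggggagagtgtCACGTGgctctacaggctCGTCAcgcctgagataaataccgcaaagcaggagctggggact

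The Nts window held 1 AP-1 site, which begins at -207 (with -1 the last base before the start site), and 1 core of the cAMP element at -166. The Tac1 window held 2 cores of the cAMP element, at -197 and -43, and an ACGTG that reads on both strands as 1 palindrome between -61 and -56. None of the 4 motifs was found in the windows of Pthlh or Adm, which says only that these letters are not in these windows. Of 32851 RefSeq windows of the same length, 4.46% held TGAGTCA, 1.55% TGACGTCA, 17.8% TGACG and 16.6% ACGTG. The core TGACG was also present in the windows of Calca (at -65) and Cck (at -47), with ACGTG at -65 in Cck. GC content ranged from 48.0% in the Nts window to 75.2% in the Pthlh window, with 51.2% for Tac1 and 56.8% for Adm. The row edges in the table lay at the RefSeq start site for Nts and Pthlh, 12 bases downstream of it for Adm and 176 bases upstream of it for Tac1. Most of the Tac1 window thus lies inside the row of the gene. That part holds the palindrome and the core at -43, but not the core at -197.

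The tissues differed in which precursor dominated. In molar, the enkephalin precursor Penk and the tachykinin precursor Tac1 were the most abundant of the 10, and in incisor it was Nts, the precursor of neurotensin. A gene is named called where the q-value in the authors' deposited table was under 0.05. By this rule Penk, Tac1 and Adm were called higher in molar, Nts and Pthlh were called higher in incisor, and Npy, Calca, Cck, Edn1 and Apln were not called, which makes 3, 2 and 5 of 10 genes. Of all 18770 tested genes, 16.2% were called, 11.9% with molar and 4.28% with incisor as the higher tissue. The members were chosen on this same contrast, so nothing is read from their count against those shares. Edn1 fell just outside the rule at q = 0.0509 and still carries the authors' own mark of significance in the authors' deposited table, which reached q = 0.0600. By that mark 4 members were higher in molar and 2 in incisor (17.3% of tested genes in either direction, 12.7% toward molar and 4.69% toward incisor). With q under 0.01 the counts were 3 and 1 (11.1%, 8.8% and 2.27% of tested genes). With q under 0.05 and a 4-fold difference they were 2 and 1 (11.5%, 8.93% and 2.57%).

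**Figure D1:**
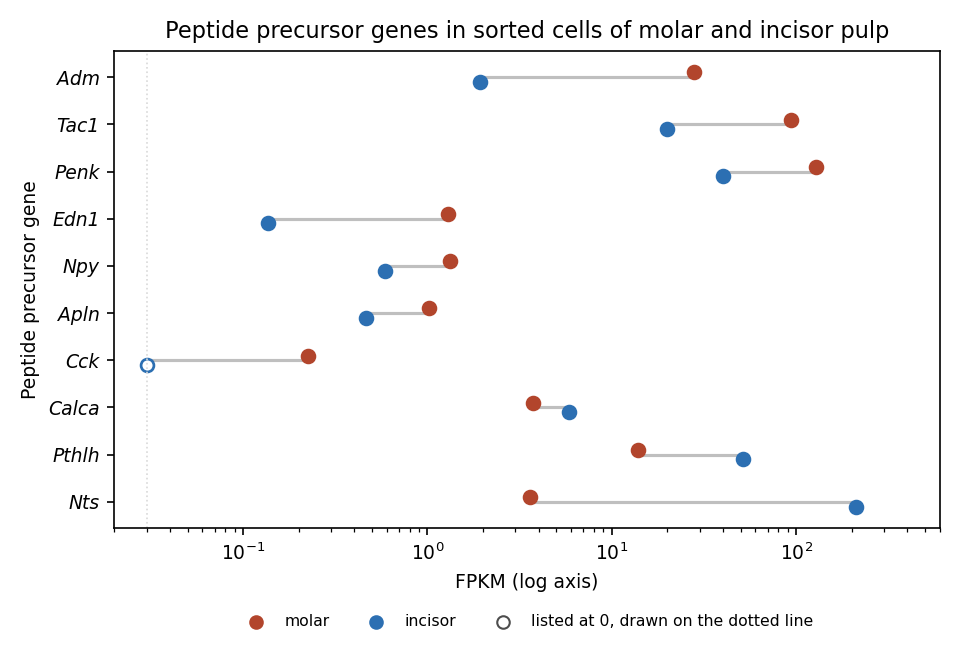
FPKM (log axis) of the 10 peptide precursor genes, with 1 combined value per tissue for molar and incisor and therefore no error bars. Adm, Tac1 and Penk lie to the right in molar, Pthlh and Nts lie to the right in incisor, and Cck is listed at 0 in incisor.

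The summed FPKM of the 10 genes was 275 in molar and 332 in incisor. Penk made up 46.7% of that sum in molar and 12.1% in incisor, and Tac1 34.1% in molar and 5.99% in incisor. Nts made up 1.31% in molar and 63.7% in incisor. Pthlh accounted for 5.03% in molar and 15.6% in incisor, and Adm for 10.2% in molar and 0.579% in incisor. Without Nts, the sum of the other 9 genes was 271 in molar and 121 in incisor. The order of the 2 tissues in the sum therefore rested on that single gene. No test can be made of these sums, since each rests on 1 value per tissue.

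**Figure D2:**
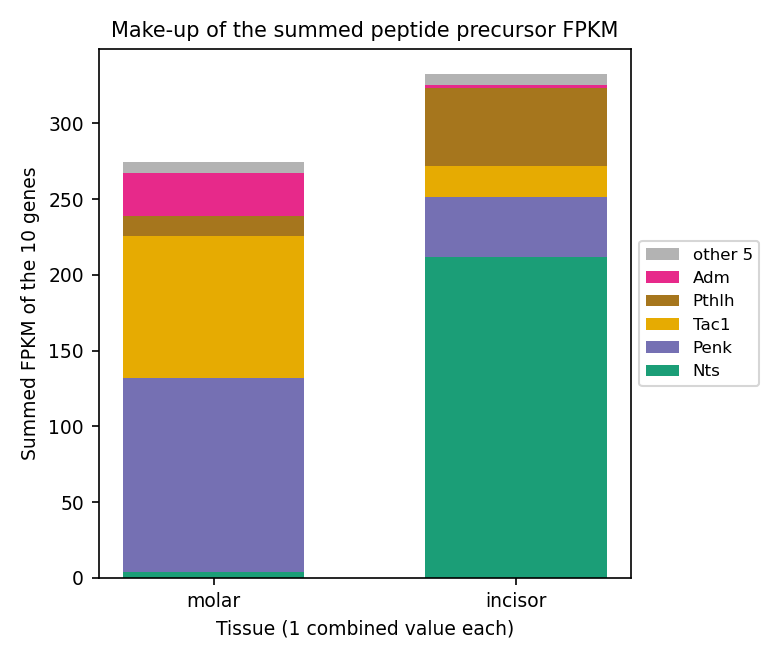
Summed FPKM of the 10 peptide precursor genes (linear axis from 0) in molar and incisor, divided by gene, with the 5 genes that were not called combined as other 5. Nts fills 63.7% of the incisor bar and 1.31% of the molar bar, and Penk and Tac1 fill most of the molar bar.

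Values near the floor of the table need care, and the floor differed between the tissues. Chemoreceptor genes (olfactory, vomeronasal and taste), a comparison chosen after values were seen, numbered 1463 and had a median of 0.114 FPKM in molar and 0 in incisor. Their 99th percentile was 3.81 FPKM in molar and 0.138 FPKM in incisor. In molar, 4 of the 10 peptide genes lay above that percentile (Penk, Tac1, Adm and Pthlh), and in incisor 8 did, all but Cck and Edn1. The molar values of Nts, Calca, Npy, Edn1, Apln and Cck thus lay within the range of genes that pulp cells are not known to use.

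The sorted cells held more than mural cells. Of the 15 mural markers, 3 were called toward molar, 3 toward incisor, and none was listed at 0, with sums of 1243 FPKM in molar and 1234 FPKM in incisor. Cox4i2, whose row also covers Bcl2l1, made much of the molar sum, and without it the list summed to 480 FPKM in molar and 849 FPKM in incisor. The mural genes toward molar were Kcnj8, Ndufa4l2 and Des, and those toward incisor were Rgs5, Pdgfrb and Tagln. The row of Ndufa4l2 also covers Shmt2, and that of Tagln also covers Bace1, Rnf214 and Pcsk7. Of 17 endothelial markers, 14 were called toward molar, with 9 of 14 dental epithelial markers called toward incisor, while 4 of 13 macrophage markers were called toward molar and 1 toward incisor. Of all tested genes, 11.9% were called toward molar and 4.28% toward incisor, the shares to set beside each marker count here and below. The endothelial genes with the largest folds were Cldn5 and Robo4, both listed at 0 in incisor, and Emcn, Flt1, Plvap and Cdh5. Egfl7 had the highest level. The molar value of Flt1, 3.53 FPKM, lay within the chemoreceptor range. The row of Plvap also covers Gtpbp3, and that of Egfl7 also covers Gm20532. The epithelial genes with the largest folds were Sfn, Krt14, Krt17, Mmp20, whose row also covers Mmp7, Cdh1 and Amelx. The macrophage list, with Lyz2 at the highest level, summed to 8647 FPKM in molar and 5623 FPKM in incisor. Its genes toward molar were C1qa, C1qc, Spi1 and Aif1, and Cx3cr1, a chemokine receptor, was called toward incisor. In a bulk sample, fewer cells of a type and less RNA per cell cannot be told apart. The FPKM total was 815089 in molar and 539574 in incisor, a log2 ratio of 0.60, and genes above 0 in both tissues had a median log2 ratio of 0.22. All 10 peptide genes kept their direction when values were centred on that median and when the totals were made equal. Both changes shift values toward incisor, so they could reverse only genes higher in molar.

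**Figure D3:**
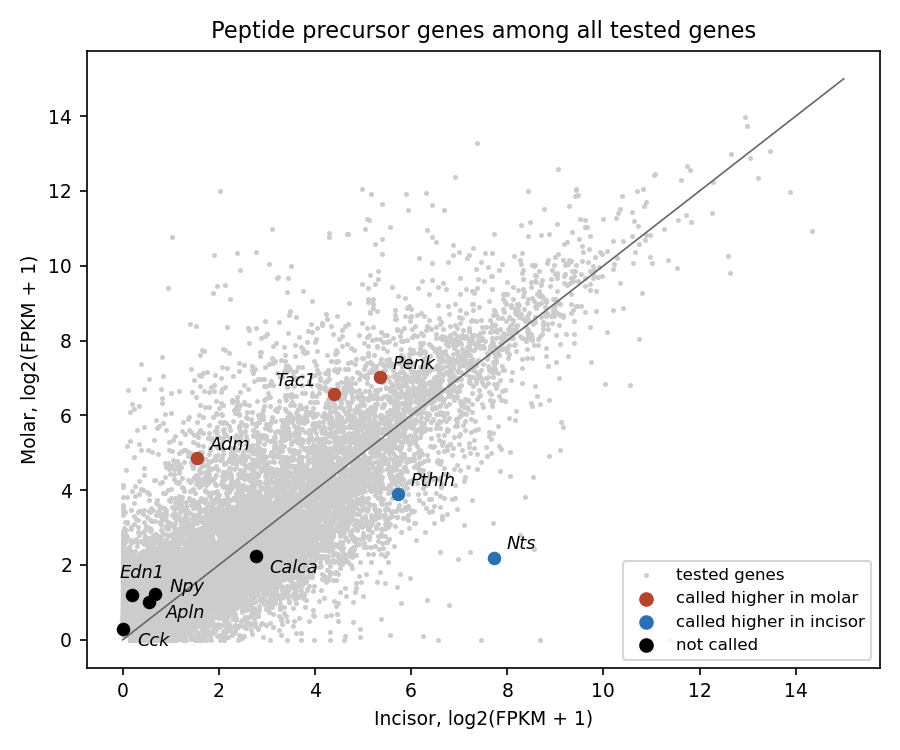
Molar against incisor level as log2(FPKM + 1) for all 18770 tested genes (grey) with the 10 peptide precursor genes named; the line marks equal values. Nts lies far below the line at 3.58 FPKM in molar and 212 FPKM in incisor, and Adm, Tac1 and Penk lie above it.

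Neurotensin, the product of Nts, is a peptide of gut and brain that acts on the receptors Ntsr1 and Ntsr2 and is taken up by the sorting receptor Sort1. Nts (row on chromosome 10, 102481756 to 102490418, minus strand, with no other annotated gene in that interval) had 3.58 FPKM in molar, against 212 FPKM in incisor. This was 59.0-fold lower in molar, with a log2 fold change of -5.88 and q = 0.000664 in the authors' deposited table. The incisor value exceeded 97.9% of tested genes and the molar value exceeded 59.0%. Among the 726 genes called higher in incisor and above 0 in both tissues, Nts ranked 4 by fold. None of its transcript's 1217 words of 32 bases occurred in another gene, so shared sequence does not bear on the value. Sort1 was not called, at 1.60 FPKM in molar and 2.94 FPKM in incisor. Ntsr1 had 0.0967 FPKM and Ntsr2 0.185 FPKM in molar, and both were listed at 0 in incisor. Both G-protein-coupled receptors of neurotensin were thus under 1 FPKM in the sorted cells of either tissue, and levels in other pulp cells were not measured.

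Some markers of other cell types were called in the direction of Nts. Mast cell markers summed to 5.25 FPKM in molar and 110 FPKM in incisor, with 2 of 8 tested genes called higher in incisor, none higher in molar, and Cpa3 and Tpsab1, proteases of mast cell granules, listed at 0 in molar. Fcer1a, the chain of the IgE receptor that defines mast cells and basophils, was listed at 0 in both tissues. Most of the mast cell sum in incisor came from 2 granule proteases that were not called in the authors' deposited table, Tpsb2 (0.0958 FPKM in molar, 46.3 FPKM in incisor, q = 0.347) and Cma1 (0.0578 FPKM in molar, 29.7 FPKM in incisor, q = 0.383). The dental epithelial markers summed to 709 FPKM in molar and 2886 FPKM in incisor without Amelx, the enamel matrix gene whose row also covers Arhgap6 and Hccs, and to 2646 FPKM in molar and 23528 FPKM in incisor with it. Of 12 odontoblast and fibroblast markers, 5 were called toward incisor (Dspp, Ibsp, Pdgfra, Sfrp2 and Postn) and 1, Dcn, toward molar. The list summed to 4304 FPKM in molar and 3097 FPKM in incisor, but without Lum and Dcn, its most abundant genes, to 478 FPKM in molar and 1179 FPKM in incisor. The genes left out of these sums were chosen after the values were seen. The part of these cell types in the Nts value was not tested.

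Pthlh encodes parathyroid hormone-related protein, which acts through the receptor Pth1r on bone and cartilage cells and is needed for tooth eruption. The gene (chromosome 6, 147252109 to 147264013, minus strand) had 13.8 FPKM in molar, against 51.7 FPKM in incisor, 3.75-fold lower in molar with a log2 fold change of -1.91 and q = 0.0103 in the authors' deposited table. Both values were well above the chemoreceptor range of their tissue. Its receptor was called toward molar, with Pth1r at 5.88 FPKM in molar and 1.06 FPKM in incisor, 5.53-fold higher in molar with q = 0.0241 in the authors' deposited table. Its row also covers Myl3. The second receptor of the family, Pth2r, had 0.0834 FPKM in molar and a listed 0 in incisor. Of the related precursors, Pth had 0.0988 FPKM in molar and a listed 0 in incisor, and Pth2 was listed at 0 in both tissues. Epithelial cells are a known source of Pthlh, and the dental epithelial markers that were higher in incisor, among them Krt14 at 32.8 FPKM in molar and 545 FPKM in incisor, moved with it. Their part in the Pthlh value was not tested.

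Penk encodes the enkephalins, short opioid peptides that act on the delta receptor Oprd1 and the mu receptor Oprm1. Penk (chromosome 4, 4133536 to 4138445, minus strand) had 128 FPKM in molar, against 40.1 FPKM in incisor, the highest molar value of the 10. It was 3.19-fold higher in molar, with a log2 fold change of 1.68 and q = 0.00326 in the authors' deposited table. The gene was abundant in both tissues, above 94.5% of tested genes in molar and 90.8% in incisor. A noncoding gene on the other strand, A830012C17Rik, overlaps the row and shares 8.89% of its transcript words, and reads of the pair cannot be told apart without strand. Oprm1 had 3.16 FPKM in molar, was listed at 0 in incisor and was called higher in molar with q = 0.00326 in the authors' deposited table, although its molar value lay within the chemoreceptor range and its row also covers Ipcef1. Oprd1 was not called, at 0.165 FPKM in molar and 0.506 FPKM in incisor, and Oprk1, the kappa receptor, had 0.120 FPKM in molar and a listed 0 in incisor.

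The other opioid precursors were far lower than Penk. Pnoc, the nociceptin precursor, was called higher in molar at 3.29 FPKM in molar and 0.111 FPKM in incisor (q = 0.00176 in the authors' deposited table), with its molar value within the chemoreceptor range. Pomc, the precursor of beta-endorphin and melanocortins, was not called, at 1.75 FPKM in molar and 0.714 FPKM in incisor. Pdyn, the dynorphin precursor, had 0.186 FPKM in molar and a listed 0 in incisor.

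Tac1 encodes substance P and neurokinin A, tachykinins that sensory nerves release in the pulp and that act on the receptors Tacr1 and Tacr2. Tac1 (chromosome 6, 7554885 to 7562978, plus strand, with no other annotated gene in the interval) had 93.6 FPKM in molar, against 19.9 FPKM in incisor. That is 4.70-fold higher in molar, with a log2 fold change of 2.23 and q = 0.000664 in the authors' deposited table. Its level exceeded 93.1% of tested genes in molar and 84.5% in incisor. The tachykinin receptors were under 1 FPKM in both tissues. Tacr1 had 0.0751 FPKM and Tacr2 0.0277 FPKM in molar, both were listed at 0 in incisor, and Tacr3 had 0.117 FPKM in molar and 0.161 FPKM in incisor. Among its relatives, Tac2, which encodes neurokinin B, had 1.07 FPKM in molar and 6.83 FPKM in incisor and was not called, and Tac4 had 0.664 FPKM in molar and 0.0620 FPKM in incisor.

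Genes that define sensory neurons were near the floor where Tac1 was not. Of 14 tested neuronal markers, 3 were called higher in molar (Scn9a, Elavl3 and Elavl4, whose molar values lay within the chemoreceptor range) and none higher in incisor, and the list of 16 summed to 122 FPKM in molar and 135 FPKM in incisor. Most of those sums came from Gap43 (71.4 FPKM in molar, 62.2 FPKM in incisor) and Tubb3 (30.1 FPKM in molar, 65.5 FPKM in incisor), cytoskeletal genes that are not limited to neurons. The nociceptor genes Scn10a and Trpv1 had 0.106 and 0.0472 FPKM in molar and were listed at 0 in incisor. Prph, a filament of peripheral neurons, had 0.579 FPKM in molar and a listed 0 in incisor. Of 8 tested Schwann cell markers, 1 (Cdh19) was called toward molar and none toward incisor, with sums of 277 FPKM in molar and 309 FPKM in incisor, of which Pmp22 made 268 FPKM in molar and 276 FPKM in incisor.

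Calca encodes calcitonin and, through alternative splicing, alpha-CGRP, and the table gives 1 value for both products. Calca (chromosome 7, 114631478 to 114636357, minus strand) had 3.72 FPKM in molar and 5.86 FPKM in incisor and was not called (q = 0.423 in the authors' deposited table). Its neighbour Calcb, which encodes beta-CGRP and lies 82285 bases away, was called higher in molar, at 16.1 FPKM in molar and 3.73 FPKM in incisor, 4.30-fold with q = 0.0157 in the authors' deposited table. Calca and Calcb shared 3.22% of their transcript words of 32 bases, so most of each transcript could be told from the other. Whether their differences between the tissues were unlike was not tested. Iapp, the amylin precursor of the same family, was listed at 0 in molar and had 0.256 FPKM in incisor.

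Adm encodes adrenomedullin, a peptide that widens vessels and is induced by low oxygen. It shares with CGRP the receptor Calcrl, whose ligand is set by a partner, Ramp1 for CGRP and Ramp2 or Ramp3 for adrenomedullin. Adm (chromosome 7, 110627669 to 110629819, plus strand) had 27.9 FPKM in molar, against 1.92 FPKM in incisor. It was 14.5-fold higher in molar, with a log2 fold change of 3.86 and q = 0.000664 in the authors' deposited table, and ranked 420 of the 2005 genes called higher in molar and above 0 in both tissues. Its level exceeded 85.2% of tested genes in molar and 48.4% in incisor. The relative Adm2 had 0.301 FPKM in molar and a listed 0 in incisor. A noncoding gene on the other strand, Gm28863, overlaps the row.

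Of the receptor parts for these peptides, Ramp1 and Ramp2 were called and Calcrl and Ramp3 were not. Calcrl itself had 3.84 FPKM in molar and 3.71 FPKM in incisor and was not called. Ramp2 had 59.6 FPKM in molar, against 5.02 FPKM in incisor, 11.9-fold higher in molar with q = 0.000664 in the authors' deposited table. Ramp1 was called higher in molar too, at 4.42 FPKM in molar and 0.752 FPKM in incisor (5.88-fold, q = 0.0167 in the authors' deposited table). Ramp3 was not called, at 2.60 FPKM in molar and 7.58 FPKM in incisor. Ackr3, which scavenges adrenomedullin as well as chemokines, had 1.94 FPKM in molar and 8.54 FPKM in incisor and was not called. Gpr182, an endothelial receptor once proposed for adrenomedullin, had 2.79 FPKM in molar and 0.0547 FPKM in incisor and was not called either (q = 0.252 in the authors' deposited table). Calcr, the calcitonin receptor, had 0.135 FPKM in molar and a listed 0 in incisor.

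**Figure D4:**
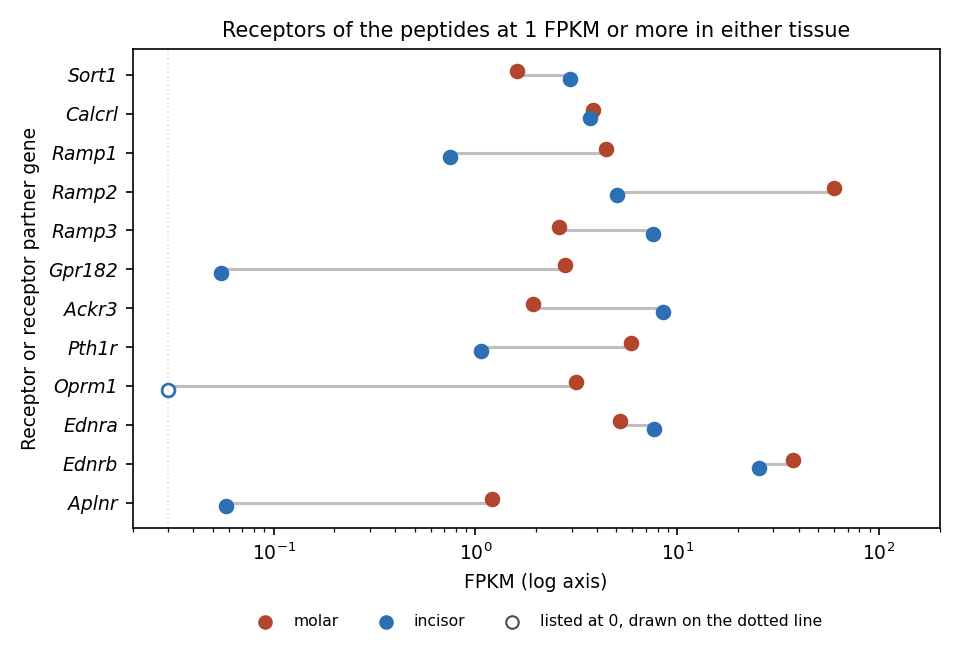
FPKM (log axis) in molar and incisor of the 12 receptor and receptor partner genes at 1 FPKM or more in either tissue, with 1 combined value per tissue. Ramp1, Ramp2, Pth1r, Oprm1 and Aplnr were called higher in molar, while Calcrl and the endothelin receptors Ednra and Ednrb lie close together in the 2 tissues.

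Edn1 encodes endothelin-1, a peptide of endothelial cells that contracts smooth muscle through Ednra and acts on endothelium through Ednrb. Edn1 (chromosome 13, 42301476 to 42307990, plus strand) had 1.29 FPKM in molar and 0.137 FPKM in incisor, with p = 0.00835 and q = 0.0509 in the authors' deposited table, and neither value left the chemoreceptor range. The noncoding Gm47118 overlaps its row on the other strand. Its relative Edn3 was the more abundant endothelin and was called higher in molar, at 22.3 FPKM in molar and 2.93 FPKM in incisor, 7.62-fold with q = 0.000664 in the authors' deposited table. Edn2 was not called, at 0.398 FPKM in molar and 0.728 FPKM in incisor. Both receptors were well expressed and not called, Ednra with 5.18 FPKM in molar and 7.71 FPKM in incisor, and Ednrb with 37.3 FPKM in molar and 25.5 FPKM in incisor. Ece1, the protease that releases active endothelins, was lower in molar, at 5.81 FPKM in molar and 34.0 FPKM in incisor (5.85-fold, q = 0.000664 in the authors' deposited table).

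Apln encodes apelin, a peptide of sprouting endothelium, and Aplnr its receptor. Apln (chromosome X, 48025146 to 48034852, minus strand) had 1.02 FPKM in molar and 0.467 FPKM in incisor and was not called (q = 0.346 in the authors' deposited table). Aplnr had 1.20 FPKM in molar, against 0.0578 FPKM in incisor, and was called higher in molar with q = 0.0391 in the authors' deposited table, though its molar value lay within the chemoreceptor range. Apela, the other ligand of Aplnr, had 1.88 FPKM in molar and 0.114 FPKM in incisor and was not called. Endothelial markers moved with the molar-higher genes Adm, Ramp2 and Aplnr. The 17 markers summed to 355 FPKM in molar and 25.8 FPKM in incisor, none was called higher in incisor, and Cldn5, Robo4 and Sox17 were listed at 0 in incisor. The part of endothelial cells in these values was not tested.

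Npy and Cck were at the low end. Npy, the precursor of neuropeptide Y (chromosome 6, 49822710 to 49829505, plus strand), had 1.33 FPKM in molar and 0.586 FPKM in incisor and was not called (q = 0.563 in the authors' deposited table). Its receptors Npy1r, Npy2r, Npy4r, Npy5r and Npy6r were under 1 FPKM in both tissues, with Npy6r the highest at 0.542 FPKM in molar and listed at 0 in incisor. Cck, the precursor of cholecystokinin (chromosome 9, 121489824 to 121495694, minus strand), had 0.224 FPKM in molar, was listed at 0 in incisor and was not called (q = 0.252 in the authors' deposited table). Its receptors Cckar and Cckbr had 0.148 and 0.0896 FPKM in molar and were listed at 0 in incisor. In a table without counts, a gene listed at 0 may still have been expressed.

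Across the receptors of all 10 peptides, 5 of 21 tested genes were called toward molar (Ramp1, Ramp2, Pth1r, Oprm1 and Aplnr) and none toward incisor, next to 11.9% and 4.28% of all tested genes. Another 7 of the 28 receptor genes were not tested by the authors. Of the 28, 16 stayed under 1 FPKM in both tissues and 13 were listed at 0 in incisor against none in molar. Zeros were more frequent in incisor over the whole table too, with 7591 of 24216 rows at 0 in incisor and 3205 in molar. The median of log2((molar FPKM + 1) / (incisor FPKM + 1)) over the 12 receptor genes at 1 FPKM or more in either tissue was 0.80, beside 0.14 over the 13198 such genes of the table. It was 0.020 with a minimum of 5 FPKM (0.19 over all genes) and 0.21 with no minimum (0.21 over all genes), so it rests on the choice of minimum, which genes could pass through the tissue where they were high. The pseudocount of 1 makes differences of low genes look smaller than they are.

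Of 19 tested genes for processing enzymes and granule proteins, Ece1 alone was called, lower in molar, beside 16.2% of all tested genes called in either direction, and the median over 13 genes was -0.68 on the same scale (0.12 with no minimum). Cpe, the carboxypeptidase that trims most neuropeptides, was abundant and not called, at 39.2 FPKM in molar and 29.1 FPKM in incisor. Pam, which adds the C-terminal amide, had 12.5 FPKM in molar and 20.7 FPKM in incisor, and Furin, a convertase of the constitutive pathway, had 4.53 FPKM in molar and 8.01 FPKM in incisor. Neither was called. The convertases of regulated granules were scarce, with Pcsk1 listed at 0 in molar and at 0.0450 FPKM in incisor, and Pcsk2 at 0.0874 FPKM in molar and 0.105 FPKM in incisor. The granule proteins Chga and Scg3 had 0.600 and 0.932 FPKM in molar and were listed at 0 in incisor, while Scg2 had 1.50 FPKM in molar and 13.2 FPKM in incisor and was not called (q = 0.0762 in the authors' deposited table). Ece2 had the highest level of the list, 62.6 FPKM in molar and 56.3 FPKM in incisor, but its transcript shares 64.4% of its words with Gm49333 and the value is uncertain.

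Among 13 tested peptidases that inactivate peptides, 2 were called higher in molar and 1 lower, against the same 16.2% of all tested genes, and the median over 11 genes was -0.35. Mme (neprilysin), which degrades enkephalins and substance P, was lower in molar at 2.78 FPKM in molar and 9.70 FPKM in incisor, 3.49-fold with q = 0.0180 in the authors' deposited table. Thop1, a peptidase that cuts neurotensin, was higher in molar at 5.57 FPKM in molar and 0.383 FPKM in incisor (14.5-fold, q = 0.00676 in the authors' deposited table). Ace, the angiotensin-converting enzyme, was called higher in molar at 1.05 FPKM in molar and 0.105 FPKM in incisor, with its molar value in the chemoreceptor range. Prcp was the most abundant of the list, at 14.0 FPKM in molar and 18.1 FPKM in incisor, and was not called.

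Of 63 other peptide precursors with a row of their own, 43 were tested. Of these, 7 were called toward molar and 2 toward incisor, next to 11.9% and 4.28% of all tested genes. Beside Calcb, Edn3 and Pnoc, those higher in molar were Agt, the angiotensin precursor (47.1 FPKM in molar, 4.81 FPKM in incisor), Stc2, a stanniocalcin (49.4 FPKM in molar, 9.86 FPKM in incisor), Gal, the galanin precursor (17.0 FPKM in molar, 2.81 FPKM in incisor), and Prok2, a prokineticin (2.41 FPKM in molar, within the chemoreceptor range, and 0.0710 FPKM in incisor). Those higher in incisor were Npff, a neuropeptide precursor whose row also covers Gm28047 (0.716 FPKM), and Gcg, the glucagon precursor (0.363 FPKM), both listed at 0 in molar. The median over the 20 genes at 1 FPKM or more was 1.48, against 0.38 with no minimum, 0.41 with a minimum of 5 FPKM and 0.49 with a pseudocount of 5 FPKM. That scale counts genes that passed through the tissue where they are high, and 43 of the 63 stayed under 1 FPKM in both tissues. Several large differences were not called, among them Gnrh1 (1.16 FPKM in molar, 17.2 FPKM in incisor, q = 0.347) and Adcyap1 (3.53 FPKM in molar, 0.0273 FPKM in incisor, q = 0.389) in the authors' deposited table, both named after their values were seen.

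**Figure D5:**
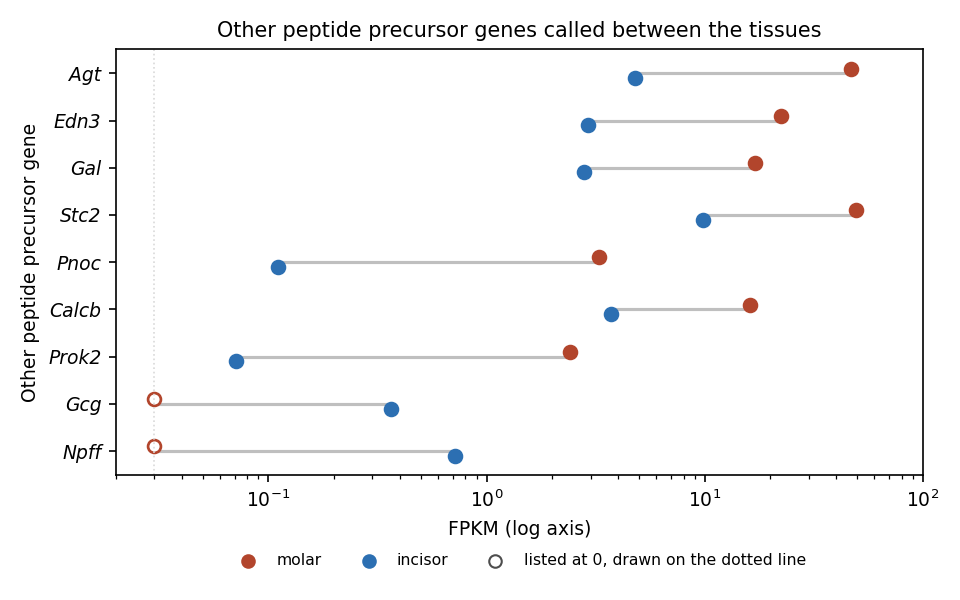
FPKM (log axis) in molar and incisor of the 9 other peptide precursor genes that were called, with 1 combined value per tissue and open symbols for genes listed at 0. The 7 genes from Agt to Prok2 lie to the right in molar, and Gcg and Npff are listed at 0 in molar.

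Genes known to be induced by cyclic AMP, a signal to which Penk, Tac1, Nts and Calca are known to respond in neurons and endocrine cells, were called toward molar in 4 of 15 cases, next to 11.9% of all tested genes, and toward incisor in none. The median over 13 of them was 0.51, but 0.24 with a pseudocount of 5 FPKM and 0.030 with equal FPKM totals. They were Nr4a1 (129 FPKM in molar, 32.1 FPKM in incisor), Dusp1 (179 FPKM in molar, 43.3 FPKM in incisor), Fosb (28.8 FPKM in molar, 6.92 FPKM in incisor) and Nr4a3 (1.10 FPKM in molar, within the chemoreceptor range, and 0.166 FPKM in incisor), which are also induced by tissue handling. Crem, a repressor that the cyclic AMP pathway induces, was not called, at 27.5 FPKM in molar and 17.6 FPKM in incisor. Penk and Tac1 moved the same way as these 4 genes and Nts the opposite way, and a part of cyclic AMP or of handling was not tested.

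Genes induced by low oxygen, a known inducer of Adm, went both ways. Of 15, 2 were called higher in molar and 2 lower, next to 11.9% and 4.28% of all tested genes. The median over 14 genes was -0.39, beside 0.14 over all tested genes at 1 FPKM or more in either tissue. Ddit4 (10.1 FPKM in molar, 0.363 FPKM in incisor) and Bnip3 (83.8 FPKM in molar, 33.3 FPKM in incisor) were higher in molar as Adm was, whereas Ndrg1 (2.28 FPKM in molar, 13.5 FPKM in incisor) and Hk2 (5.76 FPKM in molar, 16.1 FPKM in incisor) were lower in molar. P4ha2, a collagen hydroxylase, had the highest level of the list, 56.9 FPKM in molar and 94.8 FPKM in incisor, and was not called. Vegfa had 0.907 FPKM in molar and 1.55 FPKM in incisor and was not called.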

How the data were processed

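The data are RNA-seq values of FDG-sorted pulp cells from 2 molar and 2 incisor libraries of XLacZ4 mice. The submitters' processing notes name the mm10 build and the tools Trim Galore, HISAT2 and edgeR. Which tool wrote the table, and its annotation, scaling and strand setting, is not given in the sources used here. Per the file headers, the authors' deposited table gives 1 FPKM value per tissue, and for each gene a p-value, a q-value, a log2 fold change and a signed test score. The log2 fold change equals molar over incisor FPKM without a pseudocount, within 0.001 on the log2 scale, in all 15875 tested rows above 0 in both tissues. Of 24216 rows, 18770 were tested by the authors.

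The count model planned for per-library values could not be fitted, since the table holds no value per library. Rows were matched by symbol, keeping the row with the highest mean FPKM, with Insl3 left out because its row joins several genes. Genes under the authors' q of 0.05 were counted in 15 lists (the 10 precursors, receptors, processing, degradation, other precursors, genes induced by cyclic AMP or low oxygen, and markers of neurons, Schwann cells, endothelium, mural cells, macrophages, dental epithelium, odontoblasts and fibroblasts, and mast cells). The members and lists were chosen with earlier results of these data known. All 10 members are named, as are receptors at 1 FPKM or more or called; of other lists the called genes (up to 6 in each direction) and the highest level are named. Relatives and receptors outside that rule were named for family membership after values were seen. Other genes outside it were also named with their values in view. Among them are neuronal markers not called, Cpe, Pam, Furin, Pcsk1, Pcsk2, the granule proteins, Crem, Vegfa, Cma1 and Fcer1a. Promoter windows came from RefSeq (GRCm38.p6), and overlapping genes and shared words of 32 bases from GENCODE M21. Scripts (Python 3.11.15, pandas 2.3.3, NumPy 2.4.6) were tested on simulated data.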

Additional observations from a re-analysis of the deposited data

How the results depend on the processing

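No value per library is in the table, so leaving out a replicate was not run. No paired analysis was possible because each tissue has 1 combined value. A pseudocount of 0.1 or 5 FPKM cannot change the direction of a gene, so those settings do not test it. All 10 peptide genes kept their direction after centring on the median and after scaling to equal totals. Both changes shift values toward incisor, so they could reverse only genes higher in molar. Scaling could not reverse Cck, which was listed at 0 in incisor. With q under 0.01, Pthlh was no longer called, leaving 1 member higher in incisor, and counts became 2 receptors higher in molar, 1 and 0 peptidases higher in molar and incisor, 1 other precursor higher in incisor, and 1 and 0 genes induced by low oxygen higher in molar and incisor. With a 4-fold minimum, Pthlh (-1.83 on the log2 scale with a pseudocount of 1 FPKM) and Penk (1.65 on that scale) were no longer called, leaving 1 member, 0 peptidases and 1 gene induced by low oxygen higher in incisor, and 1 gene induced by low oxygen higher in molar. By the authors' own mark Edn1 (1.01 on that scale) joined the members higher in molar. Of the list medians, that of processing enzymes turned to 0.12 without a minimum FPKM, that of macrophage markers to -0.24 with equal totals, and that of all genes to -0.082 with median centring and -0.34 with equal totals. Outside the marker lists, medians that kept their sign ranged, over the settings, from 0.020 to 1.46 for receptors, 0.38 to 2.19 for other precursors, 0.030 to 0.70 for genes induced by cyclic AMP, -0.84 to -0.18 for peptidases and -0.80 to -0.17 for genes induced by low oxygen. Among marker lists, q under 0.01 left 2 macrophage, 0 Schwann and 0 odontoblast or fibroblast genes toward molar and 1 mural gene toward incisor, a 4-fold minimum left 1 macrophage and 0 odontoblast or fibroblast genes toward molar, and the authors' own mark gave 1 Schwann gene toward incisor.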
